A study of Mus musculus with 20 samples.

Results

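Cells of the oligodendrocyte lineage switch on the genes of myelin in steps, and 8 genes that mark these steps were followed through 5 cell populations of the neonatal mouse subventricular zone. The genes, chosen by name, were Mbp, Cnp, Mag, Mog, Mobp, Mal, Enpp6 and Bcas1, and they are 8 of the 45705 genes in the deposited table. The table gives RPKM, a read count scaled for the length of the transcript and for the depth of the library. A gene was tested where 4 or more of the 20 libraries reached 1 RPKM, which held for all 8 and for 27614 genes in total. They were selected for what they encode, but earlier results of these data were known when they were chosen.

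The question was how far differentiation had gone at P5 (postnatal day 5) in cells of the periventricular zone of Swiss Webster mouse pups, sorted live by flow cytometry. NSC (neural stem cells) were sorted as CD133+ LeX+ cells without CD140a or NG2, and the progenitors were all NG2+ CD133-. BNAP/GRP1 were LeX+ and GRP2/MP3 were LeX-, both without CD140a, whereas GRP3 (LeX-) and PFMP (LeX+) both carried CD140a, the PDGF receptor of oligodendrocyte progenitors. There were 4 libraries of each population, numbered by batch from 1 to 4, so that PFMP 4 is the PFMP library of batch 4. No treatment or genetic change was applied in any group. Whole litters of both sexes were pooled for a sort, and the study itself describes BNAP/GRP1 and GRP2/MP3 as gates that hold more than one cell type, and the dissection as open to cells of the adjacent parenchyma. The study counts 4 independent experiments, and the labels number 4 batches without saying which step a batch shared. Nothing in the labels ties a batch to single animals, so a p-value measures the spread between these libraries.

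On GRCm38 the 8 genes lie on 7 chromosomes, and all are annotated as protein-coding. Mbp (ENSMUSG00000041607) is on chromosome 18, Cnp (ENSMUSG00000006782) at chr11:100574904-100591729 on the plus strand, Mag (ENSMUSG00000036634) at chr7:30899176-30914873 on the minus strand, and Mog (ENSMUSG00000076439) at chr17:37010743-37023398 on the minus strand. Mobp (ENSMUSG00000032517) is at chr9:120149707-120181484 and Enpp6 (ENSMUSG00000038173) at chr8:46986887-47096762, both on the plus strand, and Mal (ENSMUSG00000027375) at chr2:127633226-127656695 and Bcas1 (ENSMUSG00000013523) at chr2:170346991-170427845, both on the minus strand. Bcas1 overlaps the annotated genes Bcas1os1 and Bcas1os2, Cnp overlaps Dnajc7, and Enpp6 overlaps 4930579M01Rik and Gm45600. Mbp overlaps Rpl21-ps8, Mog overlaps Gm22388 and Mobp overlaps Gm38642, while Mag and Mal overlap no annotated gene. The sources used here do not say whether reads were assigned by strand, so reads of Bcas1, or of another of these genes, and of an overlapping gene cannot be told apart.

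In batch 3 the 5 libraries were close to each other: 7 genes of lung and airway epithelium summed to between 918 and 1048 RPKM there and to at most 72.6 RPKM in any other library, and 11 genes of oligodendrocyte progenitors summed to 4.26 to 20.04 RPKM, against 27.7 to 4195 RPKM elsewhere. Pdgfra, which encodes CD140a, stood at 96.9 to 803 RPKM in the 6 GRP3 and PFMP libraries of batches 1, 2 and 4, and at 3.41 and 3.84 RPKM in those of batch 3. NSC held 8 ependymal genes at 1377 to 15382 RPKM in sum, against at most 548 RPKM in any progenitor library. Depth, estimated from the steps between low RPKM values, ran from 3510000 reads in BNAP/GRP1 4 to 125210000 reads in BNAP/GRP1 3, with a median of 31750000 reads (rounded). The levels of the 8 genes are therefore given by batch, and their tests and those of the lineage lists with and without batch 3. Batch 3 was set apart partly by its low oligodendrocyte progenitor genes. Results without it are thus no separate support for a difference in genes of that lineage. The share of all genes tested that passed was tallied for fits over all 20 libraries only.

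Myelin is the compacted membrane that oligodendrocytes wrap around axons. A progenitor that carries CD140a first commits and passes through a premyelinating stage, in which BCAS1, a protein of newly forming myelin sheaths, and ENPP6, a choline-specific phosphodiesterase at the cell surface, are typical. CNP, an enzyme of the non-compact cytoplasmic channels, and MBP, the basic protein that holds the cytoplasmic faces of the membrane together, rise next. MAG, an adhesion molecule of the innermost wrap, MOG, on the outermost surface, MOBP, a second small basic protein, and MAL, a proteolipid of lipid rafts, are typical of myelinating cells. MAL is also made in epithelia, and the Mbp gene also gives golli transcripts outside myelin, which values per gene cannot separate.

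The promoters of genes that are switched on in steps are shown here to place them beside the levels. RefSeq promoter sequences (build GRCm38.p6) were at hand for 6 of the 8 genes, Mal, Mag, Enpp6, Mobp, Cnp and Mog. The 250 bases before each start were searched on both strands for the SOX core motifs ACAAAG and ACAATG, for the motifs CTGGCAC and CTGGTAC of MYRF (the factor that switches on late myelin genes) and for the E-box CAGCTG of OLIG2. Of all 32851 promoters, 16.5% hold ACAAAG, 10.7% ACAATG, 4.19% CTGGCAC, 1.83% CTGGTAC and 13% CAGCTG. The promoters with a match are printed 5′ to 3′ along the gene, in lower case with every match in capitals (a match on the other strand appears as its reverse complement), and the last 35 bases of the Cnp and Mobp windows, which GENCODE annotates as transcribed, are left off. The first is that of the premyelinating gene, and the others are those of the myelin proteins.
Enpp6, chr8:46986637-46986886, plus strand: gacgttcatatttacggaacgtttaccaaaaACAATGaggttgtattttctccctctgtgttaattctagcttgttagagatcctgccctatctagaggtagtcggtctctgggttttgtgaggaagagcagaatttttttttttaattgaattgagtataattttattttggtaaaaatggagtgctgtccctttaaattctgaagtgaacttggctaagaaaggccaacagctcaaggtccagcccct
Cnp, chr11:100574689-100574903, plus strand: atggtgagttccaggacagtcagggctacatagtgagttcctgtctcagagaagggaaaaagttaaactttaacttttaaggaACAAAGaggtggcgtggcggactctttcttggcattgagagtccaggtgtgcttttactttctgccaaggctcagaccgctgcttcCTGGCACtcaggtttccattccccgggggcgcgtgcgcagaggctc
Mag, chr7:30914923-30915172, minus strand: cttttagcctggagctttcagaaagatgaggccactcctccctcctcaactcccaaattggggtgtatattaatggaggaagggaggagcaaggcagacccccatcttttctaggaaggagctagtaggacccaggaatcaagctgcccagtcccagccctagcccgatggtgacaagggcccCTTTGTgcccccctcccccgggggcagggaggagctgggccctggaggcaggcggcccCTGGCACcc
Mog, chr17:37023399-37023648, minus strand: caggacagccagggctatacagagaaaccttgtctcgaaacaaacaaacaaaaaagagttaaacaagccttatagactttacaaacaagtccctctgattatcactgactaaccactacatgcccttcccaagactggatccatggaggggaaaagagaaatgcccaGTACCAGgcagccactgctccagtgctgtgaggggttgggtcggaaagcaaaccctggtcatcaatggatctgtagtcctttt
Mobp, chr9:120149492-120149706, plus strand: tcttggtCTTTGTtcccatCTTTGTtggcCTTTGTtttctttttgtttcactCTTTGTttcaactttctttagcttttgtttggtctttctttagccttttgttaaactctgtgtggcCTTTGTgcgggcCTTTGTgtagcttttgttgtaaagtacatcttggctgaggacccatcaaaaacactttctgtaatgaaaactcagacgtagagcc
Cnp and Mag each hold 1 SOX core and 1 MYRF motif, Mog 1 MYRF motif, Enpp6 1 SOX core, and Mobp 6 copies of ACAAAG on the opposite strand in a T-rich stretch. The Mal window and a downstream Mag start hold none of the motifs, and CAGCTG is in none of the windows. The Mag entry with the start nearest to the one printed repeats most of the same bases. The motif matches are a description of these windows and carry no evidence that a factor binds there.

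Of the 8 genes, Bcas1 had the largest log2 differences from NSC in GRP3 and PFMP, the CD140a+ progenitors. In GRP3 it stood at 175, 179, 0.641 and 39.0 RPKM in batches 1 to 4, and in PFMP at 109, 166, 1.05 and 90.5 RPKM. In NSC the values were 13.5, 2.47, 0.276 and 3.17 RPKM. Within each batch, every GRP3 and PFMP library lay above the NSC library of its batch, although in batch 3 all 5 libraries were at or below 1.05 RPKM. The NG2+ CD140a- progenitors had 33.4, 7.76, 0.407 and 11.8 RPKM in BNAP/GRP1 and 7.04, 11.2, 0.254 and 66.7 RPKM in GRP2/MP3. BNAP/GRP1 lay above NSC and below GRP3 and PFMP in 4 of 4 batches, whereas GRP2/MP3 was above NSC in 2 batches and below it in 2. GRP2/MP3 4 exceeded GRP3 4, so the ranges of the CD140a+ and CD140a- progenitors overlapped in batch 4, whereas in batches 1 and 2 the 4 GRP3 and PFMP libraries (109 to 179 RPKM) were all above the 6 other libraries (2.47 to 33.4 RPKM).

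**Figure D1:**
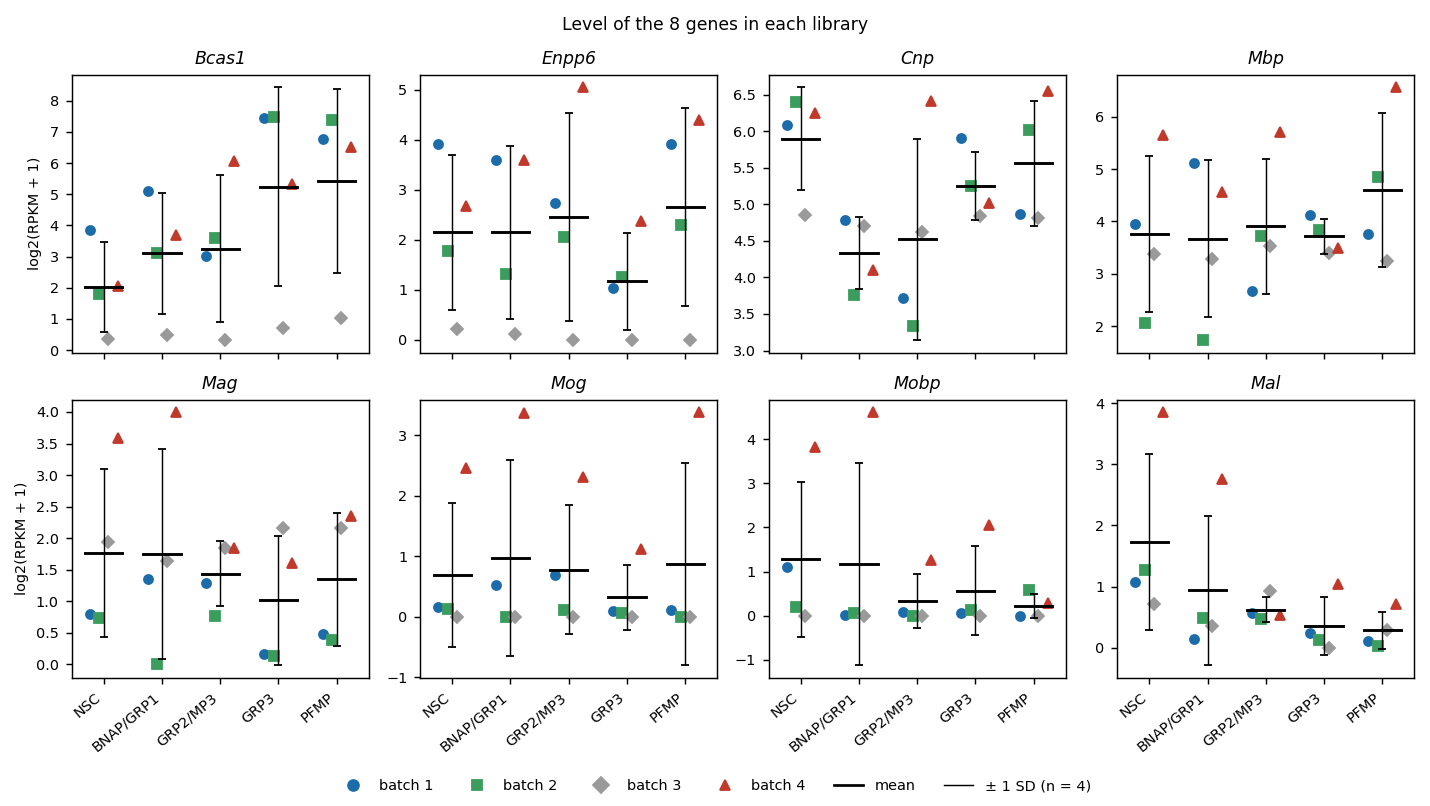
Level of each of the 8 genes as log2(RPKM + 1), with 1 point per library, the populations along the horizontal axis, the shape and colour giving the batch, and bars giving the mean ± SD of 4 libraries. Bcas1 is high in the GRP3 and PFMP libraries of batches 1, 2 and 4 and near the floor in all batch 3 libraries, while Mog and Mobp leave the floor mainly in batch 4.

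With 1 mean per population and no batch term, none of the 8 genes passed an adjusted p of 0.05 (limma, Benjamini-Hochberg over 27614 genes) in any of the 6 comparisons. For comparison, that threshold was passed by 1.05% of all genes tested in GRP3 against NSC, 1.14% in PFMP, 0.76% in BNAP/GRP1 and 1.12% in GRP2/MP3, each against NSC, and by 0% in GRP3 against PFMP and in the CD140a+ pair (GRP3 and PFMP) against the NG2+ CD140a- pair (BNAP/GRP1 and GRP2/MP3). At an unadjusted p under 0.05 the genes were Cnp in BNAP/GRP1 and in GRP2/MP3, Mal and Bcas1 in GRP3 and in PFMP, none in GRP3 against PFMP, and Cnp between the pairs, where 5.9%, 5.79%, 5.62%, 5.88%, 0.304% and 4.41% of all genes tested stood in that order of comparisons.

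Bcas1 had a log2 fold change of 3.23 in GRP3 against NSC (SE 1.54, limma adjusted p = 0.881) and of 3.42 in PFMP against NSC (SE 1.54, limma adjusted p = 0.740). The batch numbers pair the libraries, and with the batch as a block Bcas1 passed the test in both comparisons, with the same fold changes and adjusted p-values of 0.0345 in GRP3 (95% interval 1.54 to 4.92) and 0.0234 in PFMP (95% interval 1.73 to 5.10). In the blocked fit 2.6% of all genes passed in GRP3 against NSC and 2.79% in PFMP against NSC. Without batch 3 the differences were larger, 4.19 in GRP3 (adjusted p = 0.0218) and 4.32 in PFMP (adjusted p = 0.0176). Bcas1 was at or below 1.05 RPKM in every batch 3 library, so leaving that batch out raises the differences and is no separate support. With 1 library left out at a time, the differences without a batch term ran from 2.48 (without GRP3 2) to 4.74 (without GRP3 3) in GRP3 and from 2.76 (without PFMP 2) to 4.88 (without PFMP 3) in PFMP, and none passed. Without batch 4 they were 3.22 and 3.07 and did not pass, with adjusted p-values of 0.904 and 0.870, or 0.181 and 0.206 with the block.

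Between the pairs, Bcas1 was higher in GRP3 and PFMP than in BNAP/GRP1 and GRP2/MP3 by 2.16 on the log2 scale (SE 1.09), with an adjusted p of 0.895, or 0.0651 with the block, where 1.44% of all genes passed. Without batch 3 the difference was 2.72, with an adjusted p of 0.0347, or 0.0261 with the block. Microglial genes moved in the opposite direction between these pairs: 10 of 10 were lower in GRP3 and PFMP in the blocked fit, with or without batch 3, and in sum they stood at 143.6 to 5933 RPKM in BNAP/GRP1 and GRP2/MP3 and at 11.9 to 2031 RPKM in GRP3 and PFMP. The upper end of the GRP3 and PFMP range came from batch 3, where the sum was 1805 to 2031 RPKM in every population. In these bulk samples fewer cells with Bcas1 and less Bcas1 RNA per cell cannot be told apart, and the part of the other cells in this difference was not tested. GRP3 and PFMP themselves did not differ detectably in Bcas1, with a log2 difference of -0.18 and a 95% interval of -3.39 to 3.02, which also holds large differences in either direction.

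**Figure D2:**
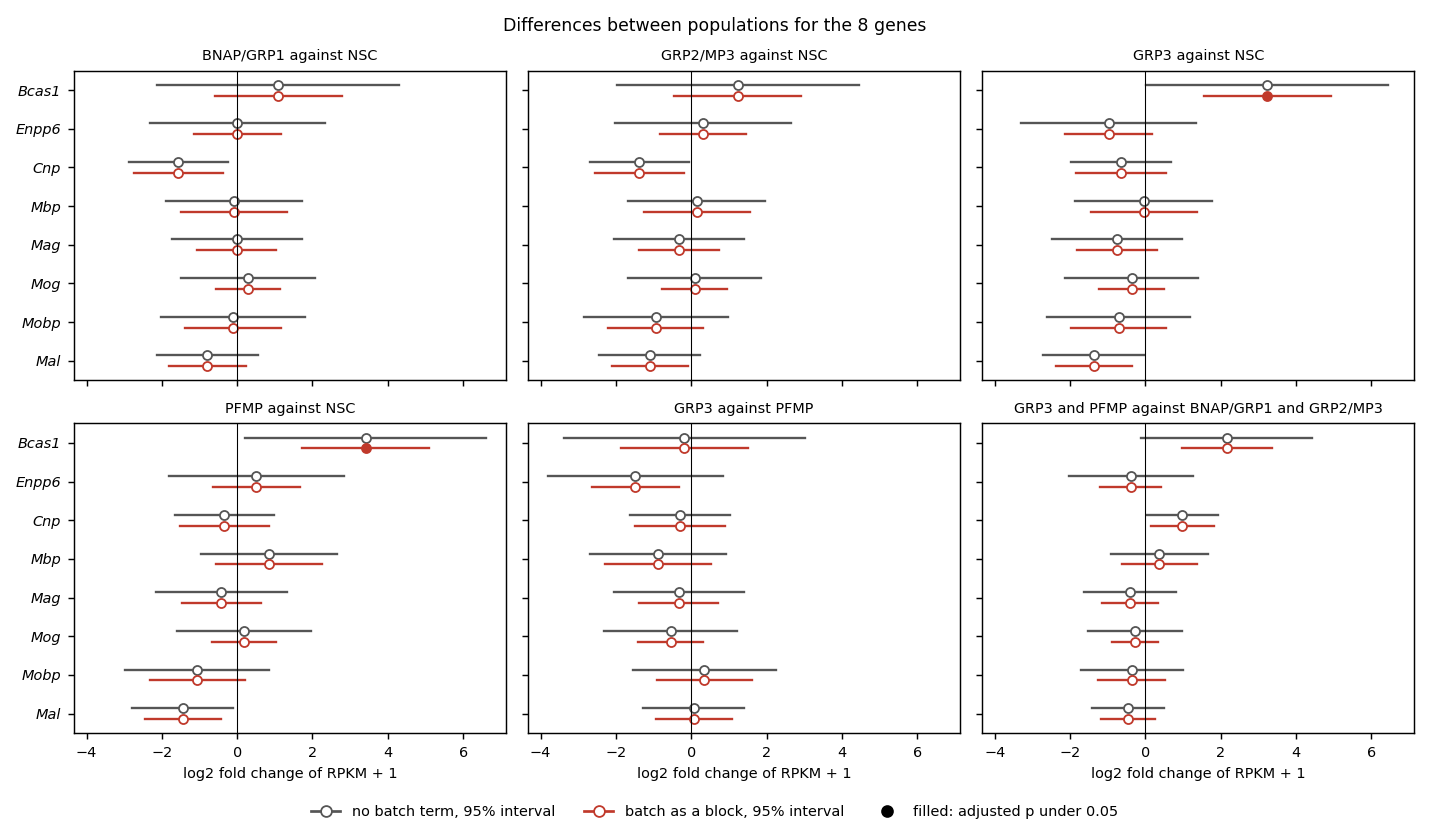
Log2 fold change of each of the 8 genes in the 6 comparisons (horizontal axis), with 95% intervals from the fit without a batch term (grey) and with the batch as a block (red), filled where the adjusted p is under 0.05. Bcas1 in GRP3 and in PFMP against NSC, at 3.23 and 3.42, passes with the block, and no other point is filled.

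Enpp6, the other premyelinating gene, did not follow Bcas1. It stood at 1.05, 1.41, 0 and 4.19 RPKM in GRP3 and at 14.01, 3.94, 0 and 20.2 RPKM in PFMP. In NSC the values were 14.1, 2.45, 0.165 and 5.39 RPKM, in BNAP/GRP1 11.1, 1.49, 0.0797 and 11.04 RPKM, and in GRP2/MP3 5.69, 3.14, 0 and 32.2 RPKM. GRP3 was the lowest of the 5 populations in batches 1, 2 and 4, and was also the lowest in the mean over 4 libraries (1.66 ± 1.79 RPKM, SD, n = 4), while GRP2/MP3 (10.3 ± 14.8 RPKM) and PFMP (9.53 ± 9.23 RPKM) were highest.

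The 2 CD140a+ populations, which both carried Bcas1, differed in Enpp6 by -1.49 on the log2 scale (GRP3 minus PFMP, 95% interval -3.81 to 0.84, limma adjusted p = 1). With the batch as a block the interval was -2.64 to -0.33 and the unadjusted p 0.0143, but the adjusted p stayed at 1, and 0% of all genes passed in that comparison in either fit. Reads could be counted for this gene, since its RPKM values are whole multiples of 1 read. There were 69 reads in GRP3 1 and 382 in PFMP 1, 126 and 188 in batch 2, 267 and 4608 in batch 4, and 0 in both libraries of batch 3, where 3 reads would have been 0.0142 RPKM in GRP3 and 0.0116 RPKM in PFMP. Enpp6 was thus lower in GRP3 in 3 of 3 batches with reads, by an amount within the spread between libraries. Against NSC its log2 fold change was -0.98 in GRP3 and 0.51 in PFMP, neither past the threshold (adjusted p = 1 in both). Without batch 3 the difference between GRP3 and PFMP was -1.98, and those from NSC were -1.23 in GRP3 and 0.75 in PFMP, again without a call.

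Cnp was present in every library, and it was highest in NSC rather than in the CD140a+ progenitors. NSC stood at 66.9, 83.8, 28.0 and 75.0 RPKM, GRP3 at 59.1, 37.2, 27.8 and 31.4 RPKM, and PFMP at 28.2, 63.6, 27.2 and 92.7 RPKM. BNAP/GRP1 stood at 26.7, 12.6, 25.1 and 16.2 RPKM, and GRP2/MP3 at 12.1, 9.05, 23.7 and 84.8 RPKM. BNAP/GRP1 and GRP3 were each below NSC in 4 of 4 batches, GRP2/MP3 and PFMP in 3 of 4, batch 4 being the exception.

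The mean of Cnp fell in the order NSC (63.4 ± 24.6 RPKM), PFMP (52.9 ± 31.5), GRP3 (38.9 ± 14.1), GRP2/MP3 (32.4 ± 35.5) and BNAP/GRP1 (20.1 ± 6.86; SD, n = 4 each), and no 2 neighbours in that order differed by more than their SDs. Against NSC the log2 difference was -1.56 in BNAP/GRP1 (SE 0.64, unadjusted p = 0.0233, limma adjusted p = 0.664) and -1.38 in GRP2/MP3 (unadjusted p = 0.0423, adjusted p = 0.796). The block lowered these to adjusted p-values of 0.212 and 0.308, in comparisons where it called 2.09% and 3.08% of all genes. Between the pairs Cnp was higher in GRP3 and PFMP by 0.98 (unadjusted p = 0.0415, adjusted p = 0.895, or 0.308 with the block). With batch 3 left out, Cnp differed from NSC by -2.03 in BNAP/GRP1 and by -1.76 in GRP2/MP3, at adjusted p-values of 0.325 and 0.469, and the difference between the pairs was 1.25 (adjusted p = 0.420). None of these passed the adjusted threshold, and the batch 3 libraries spanned only 23.7 to 28.0 RPKM across all populations.

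Mbp, the protein most used to mark myelin, had no population in which it stood apart. GRP3 had 16.4, 13.3, 9.56 and 10.3 RPKM, a range narrower than that of any other population, and PFMP 12.6, 27.8, 8.46 and 93.6 RPKM. NSC had 14.5, 3.19, 9.40 and 49.5 RPKM, BNAP/GRP1 33.8, 2.33, 8.66 and 22.6 RPKM, and GRP2/MP3 5.36, 12.2, 10.5 and 51.0 RPKM. The largest log2 difference from NSC was 0.84 in PFMP, with a 95% interval of -0.97 to 2.65 and an adjusted p of 1, and without batch 3 it was 1.17 (adjusted p = 0.985). In batch 4 Mbp was high in PFMP, GRP2/MP3 and NSC and low in GRP3, and in batch 1 it was highest in BNAP/GRP1.

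Batch 3 held Mbp at 8.46 to 10.5 RPKM and Cnp at 23.7 to 28.0 RPKM in all 5 libraries, although Olig2 did not exceed 2.19 RPKM, Sox10 1.19 RPKM and Bcas1 1.05 RPKM in any of them. Olig2 and Sox10 encode transcription factors of the whole oligodendrocyte lineage. A level of Mbp or Cnp near these values therefore also occurs in libraries with low levels of those lineage genes. Genes of Schwann cells, the myelinating cells of peripheral nerves, summed to 204 to 214 RPKM in batch 3 and to 23.95 to 181 RPKM elsewhere, and their part in the levels of Mbp and Cnp was not tested.

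Mag, Mog and Mobp, the genes of wrapped myelin, were close to absent in the CD140a+ progenitors of batches 1 and 2. Counted as reads over the 4 GRP3 and PFMP libraries of these batches, there were 6 to 11 reads of Mag in each, 0 to 2 of Mog and 0 to 22 of Mobp, and the 3 genes together made up 0.0927% to 0.308% of the summed RPKM of the 8 genes. Mog had 2 reads in GRP3 1, 1 in PFMP 1, 2 in GRP3 2 and 0 in PFMP 2. Bcas1 took 63.3% to 77.4% of the same sum and Cnp 16.1% to 24.2%, so the share of the 3 genes also depends on Bcas1. In the NSC, BNAP/GRP1 and GRP2/MP3 libraries of these batches that share was 0.167% (BNAP/GRP1 2) to 6.43% (GRP2/MP3 1). The 3 genes summed there to 0.041 RPKM (BNAP/GRP1 2) to 2.11 RPKM (GRP2/MP3 1). In GRP3 and PFMP they summed to 0.232 RPKM (GRP3 2) to 0.808 RPKM (PFMP 2), so the ranges overlapped. Levels of different genes are compared here per length, in RPKM, and the amplification from the polyA tail may weigh transcripts unevenly.

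**Figure D3:**
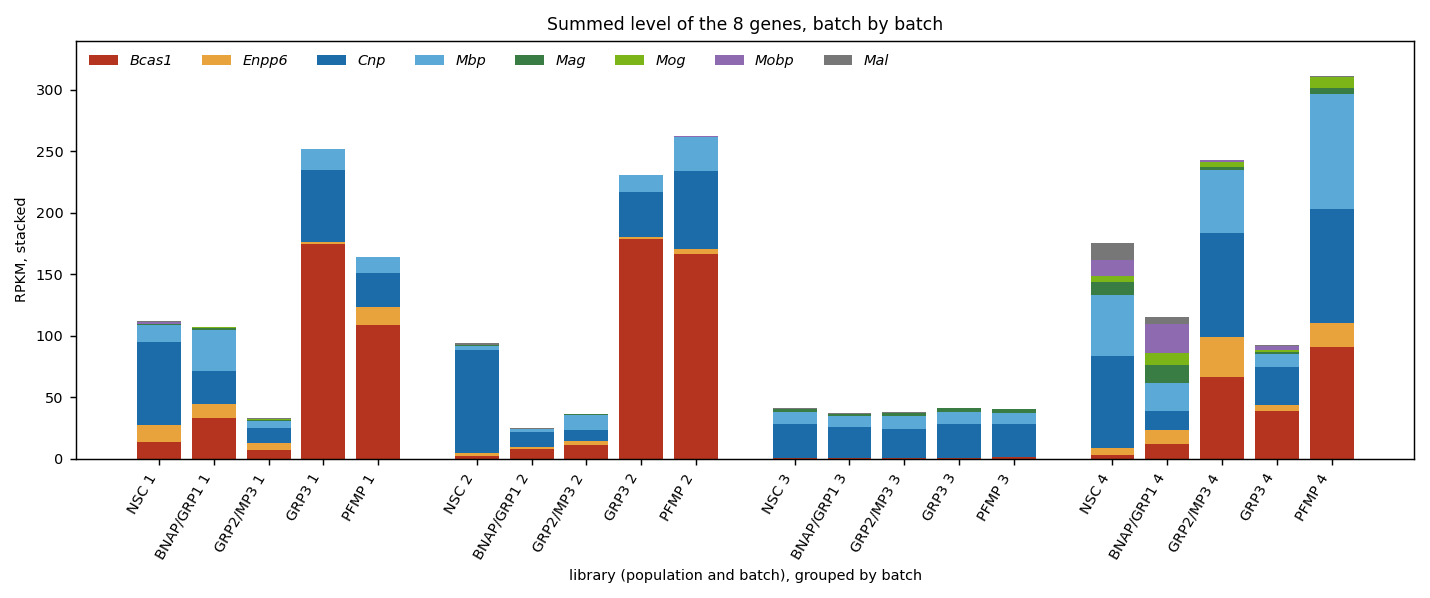
RPKM of the 8 genes stacked for each of the 20 libraries (vertical axis, per length), grouped by batch. Bcas1 fills most of the GRP3 and PFMP bars of batches 1 and 2 (63.3% to 77.4%), the 5 bars of batch 3 are nearly alike at 36.7 to 41.4 RPKM, and Mag, Mog and Mobp are visible mainly in batch 4.

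Mag was higher in batches 3 and 4 than in batches 1 and 2. It ranged from 0 to 1.56 RPKM over the 10 libraries of batches 1 and 2, from 2.13 to 3.48 RPKM in batch 3, and from 2.04 RPKM in GRP3 4 to 14.9 RPKM in BNAP/GRP1 4. The deep batch 3 libraries gave 358 to 666 reads of Mag each and none of Mog or Mobp. Of the populations, GRP3 had the lowest mean (1.43 ± 1.63 RPKM) and BNAP/GRP1 the highest (4.66 ± 6.91 RPKM, SD, n = 4), a difference within the SDs.

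Mog was at or below 0.603 RPKM in every library of batches 1 to 3 and at 1.18 to 9.39 RPKM in all 5 of batch 4. PFMP 4 gave 1055 reads of Mog (9.39 RPKM), while BNAP/GRP1 4 reached 9.33 RPKM on 42 reads. The NSC library of batch 4 held 4.51 RPKM and GRP2/MP3 4 3.94 RPKM, so in that batch Mog was not bound to the progenitor gates. At 7 libraries without a read of Mog, 3 reads would have been 0.0187 to 0.128 RPKM.

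Mobp was at or below 1.15 RPKM in batches 1 to 3, with 0 reads in all 5 libraries of batch 3. In batch 4 it stood at 23.4 RPKM in BNAP/GRP1, 13.1 RPKM in NSC, 3.19 RPKM in GRP3, 1.40 RPKM in GRP2/MP3 and 0.221 RPKM in PFMP. Mobp and Mog thus ranked the batch 4 libraries differently, with PFMP 4 highest in Mog and lowest in Mobp. The lowest adjusted p of Mag, Mog and Mobp over the 6 comparisons was 0.895 without a batch term, and with the block it was 0.580 for Mag, 0.630 for Mog and 0.591 for Mobp. Without batch 3, the lowest for these genes without a batch term was 0.791, for Mag between the pairs.

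**Figure D4:**
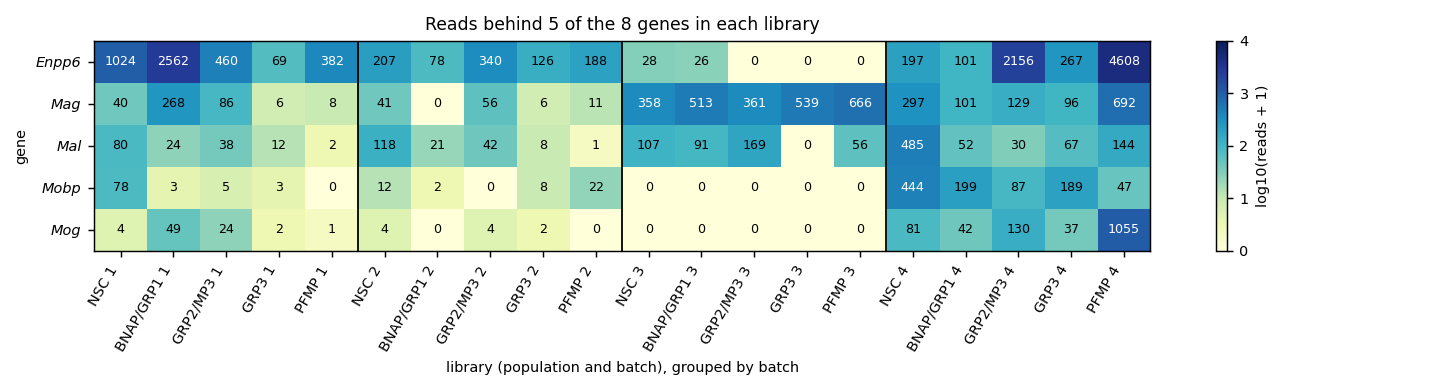
Reads of the 5 genes for which whole reads were recovered, printed in each cell for the 20 libraries grouped by batch, with the colour giving log10(reads + 1). Mog and Mobp have 0 reads in all batch 3 libraries and 37 to 1055 reads of Mog in those of batch 4, while Mag has 358 to 666 reads in batch 3.

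The mean of Mal was highest in NSC (4.15 ± 6.195 RPKM) and lowest in GRP3 (0.334 ± 0.491) and PFMP (0.238 ± 0.279; SD, n = 4 each), with no difference between neighbours in that order beyond their SDs. NSC had 1.11, 1.41, 0.636 and 13.4 RPKM, GRP3 had 0.184, 0.0904, 0 and 1.06 RPKM, and PFMP had 0.0742, 0.0212, 0.218 and 0.638 RPKM. BNAP/GRP1 had 0.105, 0.404, 0.282 and 5.75 RPKM, and GRP2/MP3 had 0.475, 0.392, 0.900 and 0.453 RPKM. The order varied by batch: BNAP/GRP1 was below GRP3 in batch 1, GRP2/MP3 was above NSC in batch 3, and GRP2/MP3 was the lowest in batch 4. GRP3, PFMP and BNAP/GRP1 were each below NSC in 4 of 4 batches, and GRP2/MP3 in 3 of 4. The reads were few, with 80, 118, 107 and 485 in NSC against 12, 8, 0 and 67 in GRP3 and 2, 1, 56 and 144 in PFMP.

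The log2 difference of Mal from NSC was -1.37 in GRP3 (SE 0.64, limma adjusted p = 0.851) and -1.44 in PFMP (SE 0.64, adjusted p = 0.725), and the block left the adjusted p-values at 0.192 and 0.152. Leaving out batch 3 gave differences of -1.60 (adjusted p = 0.656) and -1.78 (adjusted p = 0.513). Without batch 4, in which NSC stood at 13.4 RPKM, Mal was lower by -0.90 in GRP3 (adjusted p = 0.0238, or 0.0358 with the block) and by -0.88 in PFMP (adjusted p = 0.0261, or 0.0386 with the block). This step was chosen after seeing the data, and it kept the genes that passed the filter over all 20 libraries. Outside batch 4 Mal reached 1 RPKM only in NSC 1 (1.11 RPKM) and NSC 2 (1.41 RPKM), fewer than the 4 libraries of the filter. These calls thus concern a gene near the floor that passed 1 RPKM in NSC alone, and no difference is concluded from them. The 8 ependymal genes were also lower than in NSC, by larger amounts than Mal. Foxj1, Tmem212, Rsph1, Ccdc153, Dynlrb2, Cfap126, Rarres2 and Mia all passed as lower than in NSC in BNAP/GRP1, GRP3 and PFMP in the fit without a batch term, and so did 7 of them in GRP2/MP3, at log2 differences of -5.44 to -8.98. Within NSC the levels did not run in parallel. The 8 genes summed to 15382 RPKM in NSC 2, with Mal at 1.41 RPKM, and to 7698 RPKM in NSC 4, with Mal at 13.4 RPKM. Rarres2 in GRP2/MP3 differed by -4.60, with an adjusted p of 0.216, or 0.00143 with the block. The part of ependymal cells in the level of Mal was not tested.

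The genes with the patterns most like those of the 8 were named by the highest Pearson r over the 20 libraries on log2(RPKM + 1), as a description, among tested genes with a mean of at least 5 RPKM. The 3 most like Bcas1 were Ncald (r = 0.97), a calcium sensor, 3110035E14Rik (r = 0.96) and Gpr17 (r = 0.96), the receptor of committed oligodendrocyte precursors, and r stayed at 0.93 to 0.96 once the batch means were removed. Those most like Mal were Spata17 (r = 0.93), Tsga10 (r = 0.92) and Crocc (r = 0.91), the last encoding the ciliary rootlet protein, with 0.86 to 0.92 after the batch means were removed. For Enpp6 the closest were Ppp1r1b (r = 0.89) and Akap6 (r = 0.85), which dropped to 0.66 and 0.46 without the batch means.

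For Mbp they were Fam172a, Mapk9 and Etfdh (r = 0.84 to 0.88), and for Cnp Tmed4, Snap47 and Acot7 (r = 0.86 to 0.90), none of them a gene of the lists of the lineage. For Mag they were Gm14420, Pisd-ps1 and Gm24601, for Mog Rsrc1, the mitochondrial tRNA mt-Tq and Gm20677, and for Mobp Gm14515, Gm3077 and Gm22122 (r = 0.855 to 0.97), again with no gene of those lists. Libraries share batches and differ in depth, so these r values describe the table only. Among the 8 genes themselves, once batch means were removed, Mobp and Mal (r = 0.79) and Mag and Mal (r = 0.70) were the closest, Mbp and Bcas1 reached 0.53, and Bcas1 and Mal were opposed (r = -0.72).

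Lists of textbook markers placed the 8 genes beside the rest of the lineage. Of 11 genes of oligodendrocyte progenitors, 0 passed in any comparison without a batch term, and with the block 5 were higher than NSC in GRP3 and 5 in PFMP (Pdgfra, Olig1, Olig2, Sox10 and Lhfpl3 in both), with 8 higher between the pairs, the others there being Ptprz1, C1ql1 and Cacng4. Their median log2 difference from NSC was 3.63 in GRP3 and 3.34 in PFMP, against 0.05 and -0.20 over all genes tested. Olig1 and Olig2, at 216.7 and 145.5 RPKM the most abundant of the list over the 20 libraries, rose by 4.82 and 4.87 in GRP3 in the blocked fit (adjusted p = 0.00098 and 0.00986), and Pdgfra by 5.50 (adjusted p = 0.00482). Without batch 3 and with no batch term, 8 of the 11 passed as higher than NSC in GRP3, with Cspg4, C1ql1 and Matn4 added to the blocked calls. In PFMP 6 passed, with Matn4 added, and between the pairs 10 passed, with Vcan and Matn4 added. The share of all genes tested that passed without batch 3 was not tallied, so these counts and those below without batch 3 have no background beside them. Pdgfra and Cspg4 encode CD140a and NG2, the antigens of the sort. A rise of either over NSC, and of Pdgfra between the pairs, therefore follows from the gates and is no separate support.

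Of 16 genes of committed and newly formed oligodendrocytes, 4 were higher in GRP3 than in NSC with the block (Gpr17, Itpr2, Sox8 and Sema5a), 2 in PFMP (Gpr17 and Itpr2) and 1 between the pairs (Sox8), and 0 without it. Gpr17 stood at 111, 142, 0.0392 and 35.0 RPKM in GRP3, at 94.8, 66.9, 0.201 and 25.7 RPKM in PFMP and at 2.56, 0.196, 0 and 1.64 RPKM in NSC. Its batches fell as those of Bcas1 did, with batch 3 near 0 in all populations. The median log2 difference of the list was 1.52 in GRP3 and 1.43 in PFMP. Its most abundant genes, Sirt2 and Tcf7l2, did not pass in any comparison in either fit, and their log2 differences from NSC were -0.38 and -0.30 in GRP3 and 0.71 and 0.29 in PFMP. Without batch 3 and with no batch term, 4 genes were higher in GRP3 than in NSC (Gpr17, Itpr2, Nkx2-2 and Sema5a), 3 in PFMP (Gpr17, Itpr2 and Nkx2-2) and 3 between the pairs (Gpr17, Nkx2-2 and Sema5a).

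Of 20 other myelin proteins, 17 passed the filter, and over all 20 libraries none passed the test against NSC in GRP3 or PFMP in either fit. Pllp, which encodes the proteolipid plasmolipin, stood at 75.4, 53.4, 0.244 and 21.9 RPKM in GRP3, at 34.4, 99.2, 0.0241 and 20.8 RPKM in PFMP and at 0.857, 0.664, 0.220 and 3.93 RPKM in NSC. GRP3 was above NSC in 4 of 4 batches and PFMP in 3 of 4. Its log2 differences were 3.16 (adjusted p = 0.642, or 0.0739 with the block) and 3.01 (adjusted p = 0.689, or 0.0902 with the block), and without batch 3 they were 4.21 (adjusted p = 0.0264) and 4.10 (adjusted p = 0.0301). Without batch 3, Plekhb1 also passed as lower than NSC in BNAP/GRP1 and in GRP2/MP3, and between the pairs Pllp was higher and Trf lower, all with no batch term. With the block Tspan2, Jam3 and Plekhb1 were lower than in NSC in BNAP/GRP1 and in GRP2/MP3, and between the pairs Pllp and Plekhb1 were higher and Trf lower in GRP3 and PFMP. The list's median log2 difference from NSC was -0.40 in GRP3 and -0.51 in PFMP. Trf, the most abundant of the list, encodes transferrin, which the liver also makes, and stood at 390 to 441 RPKM in batch 3 and at most 64.3 RPKM elsewhere.

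Of 7 genes of myelin lipid synthesis, Elovl7 alone passed, lower in GRP2/MP3 than in NSC with the block (log2 -1.76, adjusted p = 0.0438). Without batch 3 the one gene called was Ugt8a, an enzyme of galactosylceramide synthesis, higher in GRP3 and PFMP between the pairs (log2 2.57, adjusted p = 0.0305). Elovl1 and Cers2, the most abundant, which lengthen very-long-chain fatty acids and join them into ceramides in many tissues, differed from NSC by -0.13 and 0.80 in GRP3 and by 0.11 and 0.85 in PFMP, without passing. Among the lists for other cell types, over all 20 libraries, the fit without a batch term called only the ependymal genes, and the blocked fit added 3 microglial genes (Cx3cr1, Csf1r and Aif1), 5 pericyte genes (Rgs5, Higd1b, Kcnj8, Abcc9 and Vtn) and Hbb-bt as higher in GRP2/MP3 than in NSC, and Aqp4, Gja1, Cldn5 and Slco1c1 as lower in GRP3 than in NSC. Between the pairs it called, beside the microglial genes, Rgs5, Pdgfrb and Hbb-bt as lower in GRP3 and PFMP, and none of the genes of Schwann cells, neurons, lung epithelium or T cells in any comparison.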

How the data were processed

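RNA was polyA-amplified and sequenced from 20 sorted libraries, 5 populations by 4 batches. The authors deposited RPKM values for 45705 genes. According to the submitters' notes, reads were trimmed with cutadapt 3.4, aligned with STAR 2.6.1 to GRCm38 and quantified with Salmon 1.9.0, and FastQC 0.11.9 and DESeq2 1.26.0 are also named. The gene lengths, read totals and strand setting behind the RPKM are not given in the sources used here. The table's 26 further columns are empty.

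Values were taken as log2(RPKM + 1), so fold changes of low genes are understated. Genes at 1 RPKM or more in at least 4 of 20 libraries were tested (27614) in R 4.3.3 with limma 3.58.1 (lmFit, eBayes with a trend), with 1 mean per population over all 20 libraries, two-sided, and Benjamini-Hochberg adjustment. The fit was tested on simulated data. Groups came from the labels, no library was left out, and the labels give the batch. After removal of population means, libraries of the same batch correlated at 0.0341 to 0.887 (median 0.433, 40 pairs) and those of different batches at a median of -0.254, so the batch entered as a block in an alternative. Other alternatives were the pseudocount, the filter, the scaling, the libraries in the fit, batches 3 and 4 left out, and each library left out. Leaving out batch 4 was chosen after seeing the data.

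RPKM values of 5 of the genes were whole multiples of a step, within 0.016 reads, which gave their reads and each library's depth (2557 genes in the fit). Reads were not recovered for Mbp, Cnp and Bcas1. Limits from 0 reads (3 reads) cover counting error only. Of the table's genes, 45142 were found in GENCODE vM21. The 8 genes and the marker lists were chosen with earlier results of these data known. The text names all 8 genes, the 2 most abundant genes of each lineage list, every listed gene that passed the test, Pdgfra and the 3 genes most alike to each of the 8, except for items that are not reported here. Figures used Python 3.11.15 with matplotlib 3.10.9.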

Additional observations from a re-analysis of the deposited data

Results flagged for a closer look

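In 9 of the 40 groups of 4 libraries (8 genes in 5 populations, on the log2 scale), 1 library lay apart from the other 3 by Dixon's criterion, where chance alone gives about 1 in 20. In 8 of them it was the batch 4 library, above the others. For Mog these were NSC 4 (4.51 RPKM), BNAP/GRP1 4 (9.33 RPKM), GRP3 4 (1.18 RPKM) and PFMP 4 (9.39 RPKM), for Mobp BNAP/GRP1 4 (23.4 RPKM), GRP2/MP3 4 (1.40 RPKM) and GRP3 4 (3.19 RPKM), and for Mal BNAP/GRP1 4 (5.75 RPKM). BNAP/GRP1 4 is also the shallowest library, with 42 reads of Mog, 199 of Mobp and 52 of Mal. The remaining library was PFMP 3 (1.05 RPKM), below the other PFMP libraries for Bcas1. No gene had a progenitor that lay above NSC in every batch beside another that lay below it in every batch.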

How the results depend on the processing

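The count of the 8 genes past the threshold was 0 in all comparisons and became 1 under some alternatives. It was 1 (Bcas1) in GRP3 and in PFMP against NSC with the replicate block, without batch 3, and without batch 3 with the block, 1 (Bcas1) between the pairs without batch 3 with or without the block, and 1 (Mal) in GRP3 and in PFMP against NSC without batch 4 with or without the block. It was 0 in the other comparisons and alternatives run and with any 1 library left out. The block changed no other call of the 8 genes. Of 952 recomputed differences of single genes, 856 kept their direction and side of the threshold, 12 passed it and 84 changed sign, all of them without a call, and the cause was not tested. Fewer libraries remain without batch 3 or batch 4, and without batch 4 Mal would not have passed the filter.

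The sign changes, as log2 differences, were these. Without batch 4, with or without the block, BNAP/GRP1 against NSC gave -0.30 for Enpp6 and 0.24 for Mbp, GRP2/MP3 against NSC -0.38 for Enpp6 and 0.14 for Mag, GRP3 against NSC 0.65 for Mbp, PFMP against NSC -0.060 for Mog, the comparison of pairs 0.10 for Mobp, and GRP3 against PFMP 0.15 for Bcas1, 0.10 for Cnp, -0.017 for Mal, -0.13 for Mobp and 0.016 for Mog. Without batch 3, Mag in BNAP/GRP1 was 0.079. In BNAP/GRP1, Enpp6 was -0.14 with a pseudocount of 0.1, -0.11 with median-of-ratios scaling and -0.22 with TPM scaling. Mog was -0.052 in PFMP with the pseudocount of 0.1 and -0.035 in GRP2/MP3 with TPM scaling, which gave 0.015 for Bcas1 in GRP3 against PFMP.

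With 1 library left out at a time, differences that changed sign ran in BNAP/GRP1 against NSC from -0.64 to 0.68 for Enpp6, -0.76 to 0.59 for Mag, -0.66 to 0.55 for Mbp, -1.25 to 0.73 for Mobp and -0.51 to 0.88 for Mog. In GRP2/MP3 against NSC they ran from -0.55 to 1.13 for Enpp6, -0.68 to 0.28 for Mag, -0.46 to 0.77 for Mbp and -0.42 to 0.68 for Mog. In GRP3 against NSC they ran from -0.61 to 0.58 for Mbp, -1.21 to 0.13 for Mobp and -0.64 to 0.22 for Mog, and in PFMP against NSC from -0.14 to 1.39 for Enpp6, -0.76 to 0.19 for Mag and -0.65 to 0.78 for Mog. In GRP3 against PFMP they ran from -1.65 to 1.33 for Bcas1, -0.55 to 0.024 for Cnp, -0.71 to 0.00064 for Mag, -0.16 to 0.21 for Mal, -0.15 to 0.54 for Mobp and -0.84 to 0.28 for Mog, and between the pairs from -0.80 to 0.048 for Enpp6, -0.61 to 0.21 for Mobp and -0.70 to 0.12 for Mog.

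The median log2 difference of all genes tested in BNAP/GRP1 against NSC moved from 0.38 to 0.27 with median-of-ratios scaling and 0.19 with TPM scaling. The count for the list of oligodendrocyte progenitors in GRP3 against NSC was 0 in the fit without a batch term, 4 without GRP3 3 and 8 without batch 3. Low counts limit Mog, Mobp and Mal in the CD140a+ progenitors, where 1 read changes the value.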

Other observations

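Opalin, a membrane protein of mature oligodendrocytes that did not pass the filter, was listed at 0 in all 15 libraries of batches 1 to 3 and at 0.384 to 5.46 RPKM in the 5 of batch 4. Mag, Mog and Mobp together made up 3.27% to 41.4% of the summed RPKM of the 8 genes in batch 4, with BNAP/GRP1 4 highest and GRP2/MP3 4 lowest.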
